A study of Mus musculus with 5 samples.

Results

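The renal aquaporins and the V2 vasopressin receptor were read from the RNAseq counts of cortical kidney tissue as the rows of 8 gene symbols, Aqp1, Aqp2, Aqp3, Aqp4, Aqp6, Aqp7, Aqp11 and Avpr2. All 8 of these symbols were present among 24421 in the files, and all 8 passed the filter on low counts. The series analysed here holds 1 library per mouse, from mice 8637, 9210 and 9121 of the null group (n = 3) and from 9055 and 9056 of the wildtype group (n = 2). The comparison asks how loss of Fnip1 alters gene expression in the kidney. Fnip1 null mice carried the Fnip1-/- genotype, from an allele made by ENU chemical mutagenesis and therefore present in every cell of the body. The wildtype mice were labelled Fnip1+/+. Both groups were on a C57BL6J background, neither was given a treatment according to the labels, and the labels give no age or sex for a single mouse. The study's text calls the RNAseq controls wildtype in one place and heterozygous (Fnip1+/-) in another. The labels were followed here, and if the controls were heterozygous each difference would compare null with heterozygous mice. The text also counts a further wildtype mouse beyond those in the series' own description, and it was not analysed here.

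Aquaporins are membrane channels that pass water, and some also pass glycerol or anions. In the proximal tubule and thin descending limb, AQP1 carries the bulk of water reabsorption across the cell. In principal cells of the connecting tubule and collecting duct, vasopressin binds the V2 receptor encoded by Avpr2 on the basolateral membrane, cyclic AMP and protein kinase A follow, AQP2 moves to the apical membrane and Aqp2 transcription is raised, while AQP3 and AQP4 let water out through the basolateral membrane. The other members sit elsewhere. AQP6 is an anion-conducting channel held in vesicles of acid-secreting intercalated cells, AQP7 is an aquaglyceroporin of the straight proximal tubule and of fat cells, and AQP11 is an intracellular channel of proximal tubule cells whose loss in mice gives a cystic kidney.

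Aqp2 and Aqp6 are neighbours on the plus strand of mouse chromosome 15, with Aqp2 at chr15:99579055-99584547 and Aqp6 at chr15:99601400-99605477 on GRCm38, a gap of 16.9 kb that holds Aqp5. Aqp7 at chr4:41033074-41048139 and Aqp3 at chr4:41092722-41098183 lie 44.6 kb apart on the minus strand of chromosome 4. Aqp1 is on chromosome 6 (chr6:55336432-55348555), Aqp11 on chromosome 7 (chr7:97724006-97738289) and Avpr2 on chromosome X (chrX:73892102-73895502). The promoter windows of Aqp2, Aqp6 and Avpr2 are printed because these 3 members had the largest fitted differences between genotypes. Each runs from 250 bases before to 50 bases after the RefSeq transcription start on the plus strand of GRCm38.p6, 5′ to 3′, at chr15:99578806-99579105 for Aqp2, chr15:99600950-99601249 for Aqp6 and chrX:73891852-73892151 for Avpr2. Capitals mark matches to the motifs described next.
Aqp2: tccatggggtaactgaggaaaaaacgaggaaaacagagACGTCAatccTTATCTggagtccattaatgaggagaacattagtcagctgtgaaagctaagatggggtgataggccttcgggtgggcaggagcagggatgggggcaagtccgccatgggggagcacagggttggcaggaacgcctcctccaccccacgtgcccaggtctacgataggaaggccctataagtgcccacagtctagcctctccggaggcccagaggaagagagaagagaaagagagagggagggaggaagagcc
Aqp6: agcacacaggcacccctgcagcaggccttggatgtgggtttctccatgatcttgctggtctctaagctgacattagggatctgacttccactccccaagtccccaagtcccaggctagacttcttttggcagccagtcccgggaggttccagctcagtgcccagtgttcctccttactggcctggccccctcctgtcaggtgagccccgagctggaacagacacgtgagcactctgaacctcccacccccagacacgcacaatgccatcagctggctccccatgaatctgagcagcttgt
Avpr2: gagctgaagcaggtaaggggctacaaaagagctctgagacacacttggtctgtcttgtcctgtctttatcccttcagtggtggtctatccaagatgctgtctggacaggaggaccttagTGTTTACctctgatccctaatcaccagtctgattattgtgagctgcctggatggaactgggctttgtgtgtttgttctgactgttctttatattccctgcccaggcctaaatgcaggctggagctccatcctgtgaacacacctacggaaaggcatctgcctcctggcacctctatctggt

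The motifs searched on both strands were the cyclic AMP response element TGACGTCA, its 6-base half-site TGACGT, the GATA motif written as AGATAA or TGATAA, and the forkhead motif written as TGTTTAC or TGTTTGC. The half-site lies within the full element, so the shares of these 2 motifs are not separate. The Aqp2 window held a half-site on the minus strand, read as ACGTCA at bases -212 to -207 from the start, and beside it a GATA match, read as TTATCT at -202 to -197. The Avpr2 window held 1 forkhead match at -131 to -125. No match to these letters was present in the Aqp6 window, and of the windows of 7 members with an entry, 1 of the pair for Aqp7 held a GATA match. Among 32851 promoter windows of the same length, 7.51% held the half-site, 1.79% the full element, 18.6% a GATA match and 8.48% a forkhead match. These matches describe the letters only.

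The label of the null group was first checked on Fnip1 itself, the folliculin-interacting protein that the allele disrupts. Fnip1 stood at 21.0, 16.9 and 15.99 normalized CPM (counts scaled to library size and TMM factor) in null mice 8637, 9210 and 9121 and at 51.7 and 48.6 in wildtype mice 9055 and 9056, a log2 difference of -1.48 ± 0.138 (SE) with adjusted p = 0.033 in edgeR's quasi-likelihood test. Libraries held 15799114 to 19132145 gene counts, and 3 counts in a mouse were worth 0.158 to 0.186 CPM. Mouse 9121 stood apart in sex-linked genes. It had 5954 counts of Xist against 3 to 24 in the others, and its 4 Y-linked genes summed to 0.369 CPM against 127 to 145. By these genes 9121 was female and the other mice were male, so the null group mixed sexes and the wildtype group did not. Mouse 8637 was the null mouse nearest to the wildtype mice, with a correlation across genes of 0.987 with 9055 and 0.984 with 9056. Its correlation with the other null mice was 0.986 for 9210 and 0.972 for 9121, so it was not nearer to its own group. Each member is therefore also given without 9121, and without 8637 where that moved a call. Where 8637 moved a call, the fit without null mouse 9210 is given beside it.

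Aqp6 had the largest difference of the 8 members, 2.97-fold higher in null mice, and Aqp2 came next, 1.70-fold higher. Aqp1, Aqp7, Aqp11 and Avpr2 read lower in each null mouse than in both wildtype mice. Aqp3 was slightly higher and Aqp4 overlapped. In edgeR's quasi-likelihood test, with p-values adjusted over 13874 genes, 0 of 8 members passed an FDR of 5%, where 0.678% of all genes passed and 0.526% passed with a change of at least 2-fold as well. At an unadjusted p under 0.05 there were 4 of 8 members (Aqp2, Aqp6, Aqp7 and Aqp11), against 25.1% of all genes. Aqp2 and Aqp6 passed the FDR in edgeR's exact test, its likelihood ratio test and DESeq2, where 9.82%, 10.6% and 10.2% of all genes passed. With the 2-fold threshold added, Aqp6 alone passed in each of these 3 tests, against 4.11%, 4.53% and 3.47% of genes. In TMM-scaled CPM the 2 genotypes did not overlap in 7 of 8 members, against 45.9% of all genes. In 3 members every null mouse was above both wildtype mice, against 22.9% of genes, and in 4 every null mouse was below, against 23.0%. The median log2 difference of the members was -0.059, beside 0.0035 for all genes tested.

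**Figure D1:**
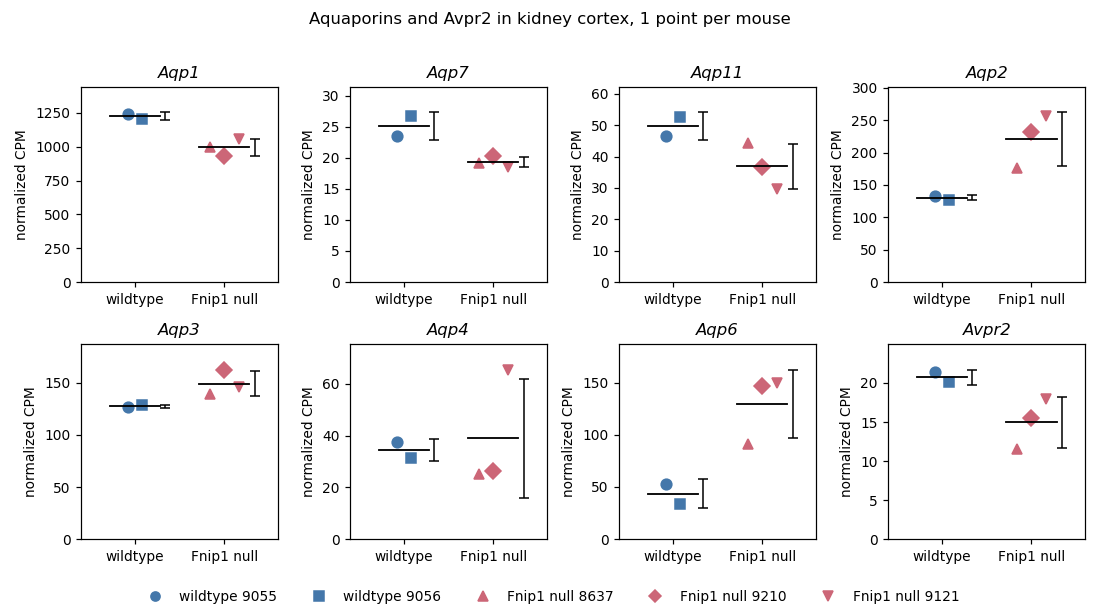
Normalized CPM (linear axes from 0) of each member in each of the 5 mice, with the group mean as a line and the SD as a bar to its right. Null mice lie above both wildtype mice in Aqp2, Aqp3 and Aqp6, below both in Aqp1, Aqp7, Aqp11 and Avpr2, and on both sides in Aqp4, where mouse 9121 is at 65.4.

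The proximal tubule members come first. Aqp1, the constitutive water channel, stood at 1000, 931 and 1057 normalized CPM in null mice 8637, 9210 and 9121 and at 1245 and 1207 in the wildtype mice. Every null mouse was below both wildtype mice, by a modest margin. The log2 difference of Aqp1 was -0.30 ± 0.138 (SE, 95% interval -0.63 to 0.034) with adjusted p = 0.235 in the quasi-likelihood test. Without 9121 it was -0.35 (adjusted p = 0.309). With scaling by library size only it was -0.14 (adjusted p = 0.498). Mouse 9121 (20029 of 17377183 gene counts) then lay above wildtype mouse 9056 (21116 of 19132145), so the groups overlapped. Because these are bulk samples, fewer cells of a type and less RNA per cell cannot be told apart for this or any other member.

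Aqp7, the glycerol-passing channel of the straight tubule, had 19.2, 20.2 and 18.6 CPM in the null mice against 23.5 and 26.6 in wildtype. The null values lay close together, with an SD of 0.820 (n = 3), and did not overlap wildtype. The quasi-likelihood fit gave a log2 difference of -0.38 ± 0.113 (SE), with adjusted p = 0.123. Without 9121 the difference was -0.35 (adjusted p = 0.212). Fat cells also use Aqp7, and the summed adipocyte markers (Adipoq, Plin1, Cfd, Retn and Fabp4) ran at 52.9, 329 and 157 CPM in null mice 8637, 9210 and 9121 against 35.3 and 33.6 in wildtype. In 9210 and 9121, where those markers were high, Aqp7 was below both wildtype values. The part of fat cells in the Aqp7 values was not tested.

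Aqp11, the intracellular channel of the proximal tubule, stood at 44.2, 36.5 and 29.8 CPM in the null mice and at 46.4 and 52.8 in wildtype. The groups did not overlap, but null mouse 8637 and wildtype mouse 9055 were close. The fitted log2 difference was -0.43 ± 0.173 (SE) with adjusted p = 0.191. One null mouse decided this call. Without 8637 the difference of Aqp11 was -0.58 with adjusted p = 0.0359. In that fit 3 members (Aqp2, Aqp6 and Aqp11) and 20.0% of all genes passed the FDR. The difference of Aqp11 was -0.30 without 9121 (adjusted p = 0.282) and -0.42 without 9210 (adjusted p = 0.398).

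Among the vasopressin-regulated members of the collecting duct, Aqp2, the apical channel, stood at 175, 231 and 256 CPM in null mice 8637, 9210 and 9121 and at 133 and 128 in wildtype. Every null mouse was above both wildtype mice, 8637 least so. The log2 difference was 0.76 ± 0.167 (SE, 95% interval 0.36 to 1.17), a 1.70-fold difference. Adjusted p was 0.0810 in the quasi-likelihood test, 0.00722 in the exact test and 0.0022 in DESeq2. Without 9121 the log2 difference was 0.64 (adjusted p = 0.0832), and without 8637 it was 0.91, which passed (adjusted p = 0.00616). Without null mouse 9210 it was 0.73, which did not pass (adjusted p = 0.272).

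Aqp3, the basolateral channel that also passes glycerol, had 139, 163 and 146 CPM in the null mice and 127 and 128 in wildtype. The null values were all higher, by a smaller margin than for Aqp2. The log2 difference was 0.23 ± 0.0983 (SE) with adjusted p = 0.216, and 0.24 without 9121 (adjusted p = 0.302).

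Aqp4, the basolateral channel that is most abundant in the deeper collecting duct, stood at 25.2 and 26.3 CPM in null mice 8637 and 9210, at 65.4 in null mouse 9121 and at 37.4 and 31.4 in wildtype. The groups overlapped, since 9121 was the highest of the 5 mice and the other null mice were the lowest. The log2 difference was 0.18 ± 0.428 (SE) with adjusted p = 0.820, and it turned to -0.42 without 9121 (adjusted p = 0.156). The summed markers of the thin limb, a medullary segment (Bst1, Slc4a11 and Epha7), had the same order of mice: 38.7 CPM in 9121, then 29.7 and 15.7 in wildtype mice 9055 and 9056, then 13.5 in 9210 and 10.2 in 8637. Slc14a2, the urea transporter of the inner medullary collecting duct and thin limb, was at 99.7 CPM in 9121 and 81.5 in 9055 but between 0.824 and 16.1 in the other 3 mice. How much of the Aqp4 values came with the medulla in each piece of tissue was not tested.

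Avpr2, the receptor itself, stood at 11.5, 15.5 and 17.9 CPM in null mice 8637, 9210 and 9121 and at 21.4 and 20.1 in wildtype. All null mice were below both wildtype mice, opposite in direction to Aqp2. Its fitted log2 difference was -0.47 ± 0.196 (SE, 95% interval -0.94 to 0.0052), with adjusted p = 0.202. Without 9121 it was -0.62 (adjusted p = 0.130). With scaling by library size only it was -0.30 (adjusted p = 0.430). Mouse 9121 (340 of 17377183 gene counts) then lay above wildtype mouse 9056 (351 of 19132145), so the groups overlapped. Arhgap4, a GTPase activating protein gene on the opposite strand, shares 81.32% of the annotated exon length of Avpr2. No source used here gives the strand setting of the counting. It is therefore not known whether reads from the shared stretch were counted for either gene or left out as ambiguous. Arhgap4 had 70, 84 and 99 counts in the null mice and 82 and 53 in wildtype, with a log2 difference of 0.24 (adjusted p = 0.606).

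Aqp6, the intercalated cell channel, stood at 91.5, 147 and 150 CPM in null mice 8637, 9210 and 9121 and at 53.3 and 33.8 in wildtype. The groups did not overlap, and mice 9210 and 9121 were close together. The log2 difference was 1.57 ± 0.287 (SE, 95% interval 0.88 to 2.27), a 2.97-fold difference. Adjusted p was 0.0659 in the quasi-likelihood test, 4.53e-05 in the exact test and 4.24e-06 in DESeq2. The difference was 1.45 without 9121 (adjusted p = 0.0606) and 1.77 without 8637, which passed (adjusted p = 0.00807). Without null mouse 9210 it was 1.47, which did not pass (adjusted p = 0.237). Without 8637 Aqp6 was the 1 member past both the FDR and the 2-fold threshold, where 6.57% of genes passed.

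**Figure D2:**
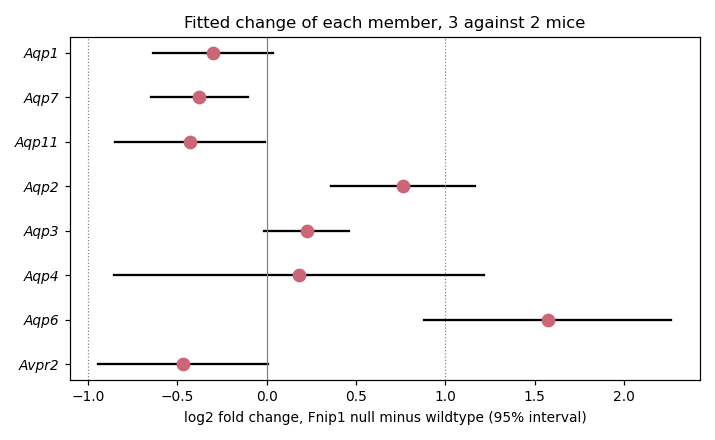
Fitted log2 difference of each member, Fnip1 null minus wildtype, with its 95% interval as a bar and dotted lines at a 2-fold change. The intervals of Aqp2 and Aqp6 lie above 0, those of Aqp7 and Aqp11 below 0, and the other 4 hold 0.

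Levels between genes were compared as CPM per kb of annotated exon. In wildtype cortex Aqp1 led with 467 ± 10.4 CPM per kb (SD, n = 2), followed by Aqp2 with 91.7 ± 2.66, Aqp3 with 69.7 ± 0.737 and Aqp6 with 18.0 ± 5.69. Across all 5 mice the ranges of these neighbours in the order stayed apart. Aqp7 followed with 8.87 ± 0.776 CPM per kb, Avpr2 with 7.19 ± 0.332, Aqp4 with 5.52 ± 0.687 and Aqp11 with 5.27 ± 0.474. The ranges of these last 4 overlapped from each to the next, so their order is not fixed by these mice. The Avpr2 value divides by its full annotated exon length, of which 81.32% is shared with Arhgap4. Its level and place would be higher if reads from the shared stretch were not counted. In the null mice the same genes held the first 5 places, with Aqp1 at 379 ± 24.0 CPM per kb (SD, n = 3), Aqp2 at 156 ± 29.0, Aqp3 at 81.5 ± 6.66 and Aqp6 at 53.4 ± 13.6.

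As a share of the summed CPM per kb of the 7 aquaporins, Aqp1 made up 69.9% and 70.3% in the wildtype mice and 60.1%, 52.0% and 54.0% in null mice 8637, 9210 and 9121. Aqp2 took 13.8% in each wildtype mouse and 19.5%, 23.9% and 24.2% in the null mice. Aqp6 took 3.24% and 2.13% in wildtype and 5.96%, 8.89% and 8.32% in the null mice. The balance thus differed by genotype mostly between these 3 channels. Together the collecting duct channels Aqp2, Aqp3 and Aqp4 made up 25.1% ± 0.263 (SD, n = 2) in wildtype and 35.3% ± 2.83 (SD, n = 3) in null mice, a difference of 10.3 percentage points. An exact two-sided permutation test over the mice gave p = 0.1, the smallest that 3 against 2 mice allow, and without 9121 the difference was 9.77 points.

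**Figure D3:**
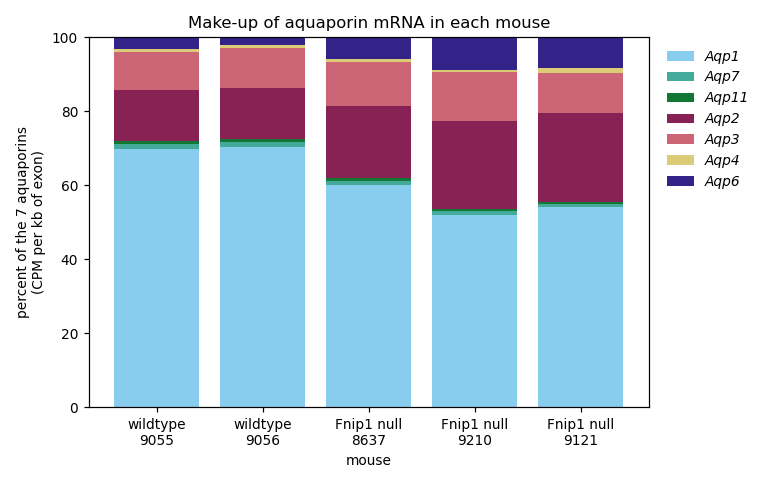
Share of each of the 7 aquaporins in their summed CPM per kb, 1 stacked bar per mouse that adds to 100%. Aqp1 fills about 70% of the bar in both wildtype mice and 52.0% to 60.1% in null mice, and the parts of Aqp2 and Aqp6 are larger in every null mouse.

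Cell type markers also differed between the genotypes, and their part in the members' values was not tested beyond the ratios that follow. All 5 thick ascending limb markers, 3 of 4 distal convoluted tubule markers, 4 of 5 principal cell markers and all 9 intercalated cell markers had a higher fitted level in null mice, with medians of 0.17, 0.48, 0.70 and 0.66 on the log2 scale. Among all genes tested, 7009 were higher and 6865 lower. Of these 4 lists no gene passed the quasi-likelihood FDR, while 0, 1, 4 and 3 passed in the exact test, where 9.82% of all genes passed. Among principal cell markers, Hsd11b2, the enzyme that shields the mineralocorticoid receptor from glucocorticoids, had a log2 difference of 0.84 (adjusted p = 0.103). The sodium channel subunits Scnn1b and Scnn1a differed by 0.82 and 0.70 (adjusted p = 0.115 and 0.0602). Among intercalated cell markers the proton pump subunits Atp6v0d2 and Atp6v1g3 differed by 1.31 and 1.12 (adjusted p = 0.0506 and 0.0808) and the bicarbonate exchanger Slc4a1 by 1.06 (adjusted p = 0.0847). The summed principal cell markers ran from 696 to 1024 CPM in null mice against 486 and 525 in wildtype, and the summed intercalated cell markers from 625 to 1001 against 457 and 514.

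The proximal tubule list had 3 of 10 markers higher and 7 lower, with a median of -0.34. None passed the quasi-likelihood FDR. In the exact test 1 passed, against 9.82% of all genes: Gatm, an enzyme of creatine synthesis, at 0.62. The organic anion transporter Slc22a6 and the fatty acid transporter Slc27a2 were lowest, at -1.16 and -0.80 (adjusted p = 0.152 and 0.195). Slc5a12 went the other way, higher in every null mouse, at 0.63 (adjusted p = 0.137). All 3 markers of the straight proximal tubule were lower in each null mouse than in both wildtype mice, their sum being 2254, 875 and 450 CPM in 8637, 9210 and 9121 against 4054 and 4323, and 1 of them, Atp11a, passed in the exact test. Both Slc7a13 and Cyp7b1 were near 4 CPM, at 4.17 and 4.43, in mouse 9121, which stood apart in sex-linked genes. Of other cell types, endothelial markers were higher in 6 of 6 (median 0.60) and leukocyte markers in 5 of 6 (median 1.24). None passed the quasi-likelihood FDR, and 1 and 4 passed in the exact test, against 9.82% of all genes. Of the red cell genes only Alas2 was tested (0.48, adjusted p = 0.238), and globin genes were nearly absent from the counts. Reads without a unique alignment were left out of the counts, so the amount of red cell RNA cannot be read from the globin genes.

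**Figure D4:**
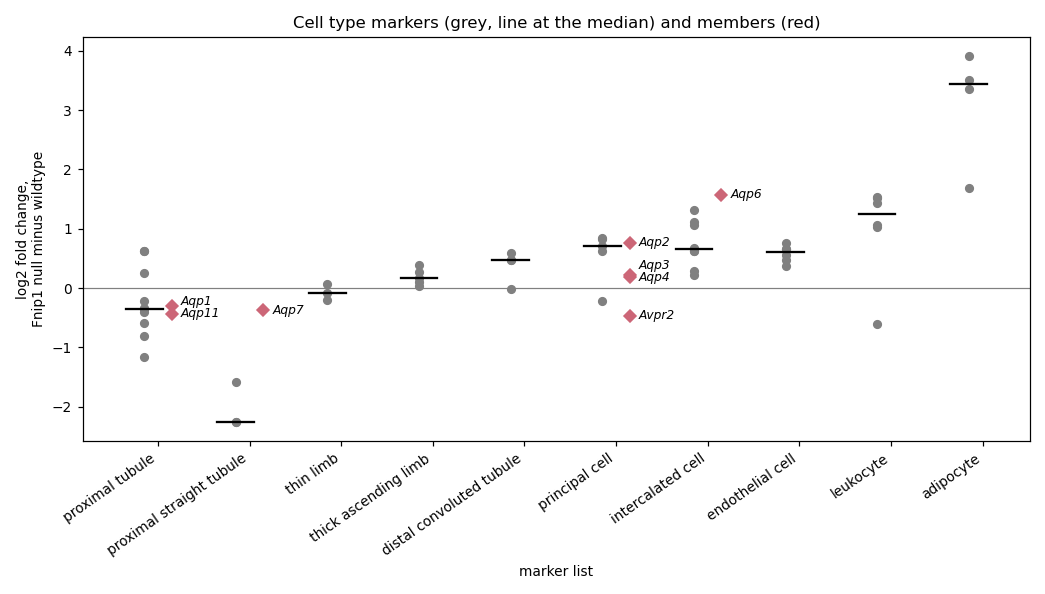
Log2 difference, Fnip1 null minus wildtype, of the tested markers of 10 lists (grey points, median as a line) and of the members beside the list they belong to (red). Aqp2 lies at 0.76 among the principal cell markers (median 0.70), Avpr2 at -0.47 lies below all of them, and Aqp6 at 1.57 lies above all intercalated cell markers.

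To see whether a member moved apart from its own cell type, its log2 level in each mouse was taken relative to the mean log2 level of that cell type's markers (with 0.5 CPM added). For Avpr2 against 5 principal cell markers this value was -2.85, -3.02 and -2.61 in null mice 8637, 9210 and 9121 and -1.74 and -1.90 in wildtype. Each null mouse was below both wildtype mice, with a mean difference of -1.01, or 0.498 of the wildtype ratio. The exact two-sided permutation test gave p = 0.1, the smallest possible, and 0.32 after adjustment over the 8 members. Without 9121 the difference was -1.12. All but 1 of these markers are also used by the connecting tubule, and the other, Fxyd4, the sodium pump regulator of the collecting duct, had a log2 difference of -0.22. Fxyd4 overlapped between the groups, at 9.54, 16.9 and 19.2 CPM in null mice 8637, 9210 and 9121 and 18.6 and 16.9 in wildtype. It was lowest in 8637, as Avpr2 was, but highest in 9121, where Avpr2 was below both wildtype mice. The ratio of Avpr2 to Fxyd4 alone was higher in 8637 than in both wildtype mice, so on that ratio the groups overlapped. The fitted log2 difference was -0.47 for Avpr2 beside -0.22 for Fxyd4. The size of the -1.01 therefore rests on the markers that the connecting tubule also uses.

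Aqp2 relative to the same markers was 1.02, 0.84 and 1.19 in the null mice and 0.87 and 0.74 in wildtype, and the groups overlapped. Its mean difference was 0.22 (exact permutation p = 0.3), so it did not stand apart from the principal cell list beyond the spread between mice, and the difference was -0.024 with the median of the markers in place of their mean. Aqp3 was lower relative to these markers in every null mouse, by -0.31 on average (exact permutation p = 0.2, adjusted 0.32). Aqp4 overlapped, at -0.49 (exact permutation p = 0.5), or -0.91 without 9121.

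Aqp6 relative to 9 intercalated cell markers was 0.69, 0.68 and 1.06 in null mice 8637, 9210 and 9121 and 0.33 and -0.45 in wildtype. All null mice were higher, although the wildtype mice differed from each other by nearly as much as the groups did. The mean difference was 0.87 (exact permutation p = 0.1, adjusted 0.32), 0.74 without 9121, 0.48 without wildtype mouse 9056 and 1.26 without wildtype mouse 9055. It fell to 0.54 with the median of the markers in place of their mean. The log2 differences of the markers themselves ran from 0.22 for Slc26a4 to 1.31 for Atp6v0d2, so the size of this value depends on the markers chosen. The list was not split by type of intercalated cell. The value is therefore not specific to the acid-secreting cells that hold AQP6.

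Of the proximal members, Aqp1 relative to 10 proximal tubule markers differed by -0.045 with overlapping groups (exact permutation p = 0.9), and Aqp11 by -0.18 with every null mouse lower (exact permutation p = 0.2). For Aqp7 the ratio to the 3 straight tubule markers was higher in all null mice by 2.71 (exact permutation p = 0.2), with values of -4.78, -2.93 and -0.18 in 8637, 9210 and 9121 against -5.39 and -5.30. The mean log2 level of these markers differed by -3.08 and that of Aqp7 itself by -0.38, and without 9121 the difference of the ratio was 1.49. The ratio thus followed the markers far more than Aqp7. Mouse 9121, where the markers were lowest, was also the mouse apart in Xist and Y-linked genes. The part of sex in these markers was not tested. Over all 8 members the adjusted p ran from 0.32 to 0.9.

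**Figure D5:**
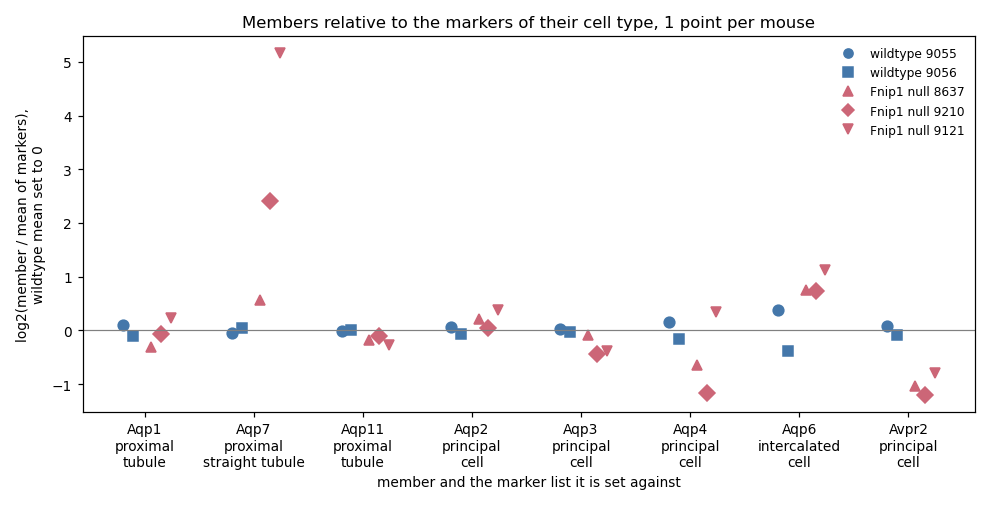
Log2 ratio of each member to the mean of its cell type's markers, 1 point per mouse, with the wildtype mean of each member set to 0. Null mice lie about 1 below wildtype for Avpr2 and spread from near 0.6 to above 5 for Aqp7, while Aqp1, Aqp2 and Aqp4 overlap.

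Ratios between members, chosen after the values were seen and given as descriptions, avoid the marker lists. Avpr2 over Aqp2 in CPM was 0.0654, 0.0670 and 0.0701 in the null mice and 0.161 and 0.157 in wildtype, so the null mice held a narrow range far below wildtype, with a mean log2 difference of -1.22. Aqp2 over Aqp3 was 1.26, 1.42 and 1.76 in null mice and 1.05 and 0.993 in wildtype. Aqp6 over Aqp2 was 0.521, 0.635 and 0.586 in null mice and 0.401 and 0.265 in wildtype. Aqp7 over Aqp1 and Aqp11 over Aqp1 overlapped between genotypes.

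The machinery around these channels was read from lists of genes. Of 18 tested genes of vasopressin and cyclic AMP signalling, 15 were higher and 3 lower in null mice, with a median of 0.39, beside 7009 higher and 6865 lower among all genes tested. None passed the quasi-likelihood FDR, and 2 passed in the exact test, against 9.82% of all genes. Prkar1b, a regulatory subunit of protein kinase A, was at 1.04 (adjusted p = 0.0655 in the quasi-likelihood test and 9.1e-04 in the exact test). Avpr1a, the V1a vasopressin receptor, was at 0.998 (adjusted p = 0.0985 in the quasi-likelihood test and 0.00946 in the exact test). The Avpr1a level was 17.7, 29.9 and 21.3 CPM in null mice 8637, 9210 and 9121 and 10.2 and 12.8 in wildtype, the reverse of Avpr2. The oxytocin receptor Oxtr differed by 1.23 (adjusted p = 0.186) from levels near 1 CPM or less.

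Genes of AQP2 trafficking and turnover were divided, 5 higher and 9 lower of 14, with a median of -0.038 and none past the FDR in the quasi-likelihood or the exact test. The chaperone Hspa5 was at -0.42, the vesicle fusion protein Vamp2 at 0.37 and the apical sorting protein Mal at 0.36 (adjusted p = 0.217, 0.174 and 0.237). Of 8 transcription factors of the collecting duct 5 were higher and 3 lower, with a median of 0.31. Ehf and Gata3 were both at about 0.77 to 0.78 on the log2 scale and passed in the exact test (adjusted p = 0.0473 and 0.00992) but not in the quasi-likelihood test (0.132 and 0.0877), and Elf3 was at 0.58 (adjusted p = 0.147 in the quasi-likelihood test).

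Of 4 tested genes of the response to hypertonicity, 1 was higher and 3 lower, and none passed in either test. The betaine carrier Slc6a12 varied from 0.294 to 5.65 CPM among null mice, and the inositol carrier Slc5a3 and the taurine carrier Slc6a6 were at -0.15 and -0.089. Among the water and urea transport genes, the sodium-potassium-chloride carrier Slc12a2 was lower in every null mouse, at -0.69 (adjusted p = 0.0857 in the quasi-likelihood test and 0.00671 in the exact test). The urea carriers Slc14a1 and Slc14a2 overlapped between genotypes.

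The other aquaporin genes gave little signal. Mip, Aqp5, Aqp9 and Aqp12 had 0 to 3 counts in each mouse and were not tested, and Aqp8 had 5, 5 and 15 counts in null mice 8637, 9210 and 9121 and 16 and 19 in wildtype, with a log2 difference of -1.13 (adjusted p = 0.230). Near the members, the 3 other tested genes within 100 kb of Aqp2 or Aqp6 had log2 differences of -0.078 to 0.93, the highest being Racgap1, a cytokinesis gene (adjusted p = 0.147). The 6 around Aqp7 and Aqp3 lay between -0.25 and 0.068, and none of these neighbours passed the FDR in the quasi-likelihood test. Aqp5, with 3 counts at most, lies between Aqp2 and Aqp6, both of which read higher in null mice.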

How the data were processed

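RNAseq libraries were made from frozen cortical kidney tissue, 1 per mouse. Per the methods and labels, the authors filtered reads by quality, aligned them to mm10 with TopHat2 2.1.0 and counted them per gene with HTSeq 0.6.1. The deposited values are raw counts. HTSeq lines that name no gene (39.01% to 42.78% of reads or pairs) were left out. Fits used edgeR 4.0.16 under R 4.3.3: TMM normalization, the quasi-likelihood test with the newer dispersion method (legacy off), Benjamini-Hochberg adjustment over 13874 genes, and a filter that dropped genes under 10 counts in more than 2 of 5 mice. DESeq2 1.42.0, the edgeR exact and likelihood ratio tests, other scalings and filters, and leaving out each mouse were alternatives. CPM are TMM-scaled. Exon lengths and positions came from GENCODE M21 on GRCm38, and promoters from RefSeq. Scripts were tested on simulated data.

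Members, marker lists and motifs were chosen with earlier results of these data known. Named genes were all members, Fnip1, and from each list the genes past the FDR, then those with the 3 largest absolute log2 differences. Genes outside this rule (Fxyd4, Arhgap4, Gatm, Slc26a4 and the neighbour Racgap1) were named after their values were seen. Mice were labelled as separate animals. The study analysed the counts with edgeR at an FDR of 5% and a 2-fold change. One marker list is not reported here.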

Additional observations from a re-analysis of the deposited data

How the results depend on the processing

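The number of genes called at an FDR of 5% and 2-fold was 73 in the quasi-likelihood test (56 higher, 17 lower) and 570 in the exact test (424 higher, 146 lower), with 482 in DESeq2 and 628 in the likelihood ratio test. Leaving out 1 mouse gave 0 to 911 genes: 911 without null mouse 8637, 138 without 9121, and 0 without 9210, 9055 or 9056. Of the members, 0 were called in the quasi-likelihood test, 1 (Aqp6) in each of DESeq2, the likelihood ratio test and the exact test, and 0 to 1 when leaving out 1 mouse, the 1 being Aqp6 without 8637. The direction of 7 members held in all 13 alternatives, and that of Aqp4 turned to -0.42 without 9121 (range when leaving out 1 mouse -0.42 to 0.42). Relative to its markers, Aqp1 turned from -0.045 to 0.019 with the median of the markers and to 0.086 without 8637 and 0.054 without 9055 (range when leaving out 1 mouse -0.19 to 0.086), and Aqp2 from 0.22 to -0.024 with the median of the markers, an alternative added after seeing the data. The causes of these shifts were not tested. Scaling by library size only moved the median of all genes from 0.0035 to 0.17 on the log2 scale. No paired analysis was possible because the mouse numbers are not shared between the genotypes. With 3 against 2 mice no permutation test could go below 0.1. Intervals cover the spread between these 5 mice only.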

Other observations

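Over the 5 mice, the genes whose log2 CPM followed a member most closely were Ly6c1, Fut11 and Adgrf5 for Aqp6 and Cuedc1, Pitpnm1 and Ctsf for Aqp2, chosen among 9621 genes with a mean of at least 10 CPM. As many as 446 genes followed Aqp6 and 473 followed Aqp2 with a Pearson correlation above 0.95, so with 5 mice that share their genotypes these names are a description of the libraries only.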
